A study of Mus musculus with 57 samples.

Results

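The earliest comparison of the study set corticospinal neurons (CSN) of Sod1G86R mice against those of wild-type mice at 30 days, in 3 libraries against 4. These 7 of 57 libraries were chosen by their labels alone, which give the cell type, the genotype and the age, and not by any measured value. CSN send their axons from the cerebral cortex to the spinal cord and are, with the motor neurons of the spinal cord, the cells that degenerate in amyotrophic lateral sclerosis (ALS). Sod1 encodes the cytosolic copper and zinc superoxide dismutase, which removes superoxide radicals. Mutant forms of it misfold and cause motor neuron disease in people and in transgenic mice, and at 30 days the Sod1G86R line has not yet developed motor signs.

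The 3 Sod1G86R libraries came from animals 3, 4 and 6 and the 4 wild-type libraries from animals 1, 3, 4 and 5. Values of single libraries are given in this order throughout. The labels give genotype, age and tissue (brain), where the age is a plain number read here as days, and they give no strain, sex, transgene promoter or number of cells per library. The other libraries were CSN at 60, 90 and 105 days (8, 8 and 6 libraries) and a comparison population, labelled only as control cells, of which 7 libraries were from 30 days and 28 from all ages. Animals 3 and 4 of the mutants and all 4 wild-type animals gave a control cell library as well. Libraries of a group differ only in the animal number and in a library number, so the spread between them may be in part technical. Whether the library number follows the order of processing was not tested.

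Recovered reads in the 7 libraries were 28.3 to 43.4 M, and between 15223 and 17066 genes were detected, that is, reached 34.6 normalised reads. Libraries correlated at 0.938 to 0.975 within a group and 0.926 to 0.977 between genotypes. CSN markers were present in every library. Bcl11b, the transcription factor that directs subcerebral projection neuron identity, had 6177 to 10753 normalised reads in Sod1G86R and 7517 to 9688 in wild type, against 75.1 to 251.6 in control cells of that age. Fezf2, which acts upstream of it, had 5806 to 7782 and 6103 to 7123 normalised reads in CSN. Markers of glia were not absent. The microglial receptor Csf1r had 7.14, 244 and 122 normalised reads in the Sod1G86R libraries and 344, 873, 740 and 447 in the wild-type ones, against 2447 to 11405 in control cells.

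At 30 days few genes passed the threshold in the comparison of 3 libraries against 4, which does not show that few genes differed. Of 19093 genes tested, 3 passed at an adjusted p under 0.05 (0.0157%): Sod1 and Gm8566 rose and Fnbp1l fell. The test was limma on log2(normalised reads + 34.6), and the log2 differences below are Sod1G86R minus wild type on that scale, which understates the change of genes with few reads. The median log2 difference of all genes was -0.03. At an unadjusted p under 0.05 stood 2569 genes, 1723 higher and 846 lower. In 937 genes (4.91%) all 3 Sod1G86R libraries lay above all 4 wild-type libraries, and in 818 (4.28%) all lay below. DESeq2 on the recovered reads called 245 genes, 205 higher, and without wild-type animal 4 limma called 44. Without Sod1G86R animal 3 it called 8, and with same-numbered libraries of the genotypes treated as pairs it called 326. Sod1, Gm8566 and Fnbp1l passed under every alternative in which they were tested.

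Sod1 had 102522, 96205 and 128601 normalised reads in the Sod1G86R libraries and 3085, 1806, 3868 and 4562 in the wild-type libraries. The groups were far apart, and no library went against its label. Its mean was 109109 ± 17173 (SD) in Sod1G86R and 3330 ± 1182 in wild type, a log2 difference of 5.09 ± 0.27 (SE) or 34.0-fold (limma adjusted p = 1.09e-13). Reads of the normal gene and of the transgene were counted together. Sod1 lies on chromosome 16 at 90220754 to 90226329 (GRCm38, plus strand). Its neighbour Scaf4, which encodes an RNA processing factor and overlaps it in part, had 360 ± 94.6 and 400 ± 173 normalised reads (log2 difference -0.08 ± 0.28). Library preparation did not mark strand, so reads in an overlap cannot be assigned to either gene. Gm8566 on chromosome 6, an intronless copy derived from Sod1 and annotated as a pseudogene, had 714, 391 and 988 normalised reads against 21.7, 13.6, 21.6 and 33.9 (3.60 ± 0.33, adjusted p = 6.41e-08). Reads of Sod1 can be placed at this copy, so its own expression is uncertain. It was named after its values were seen.

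**Figure D1:**
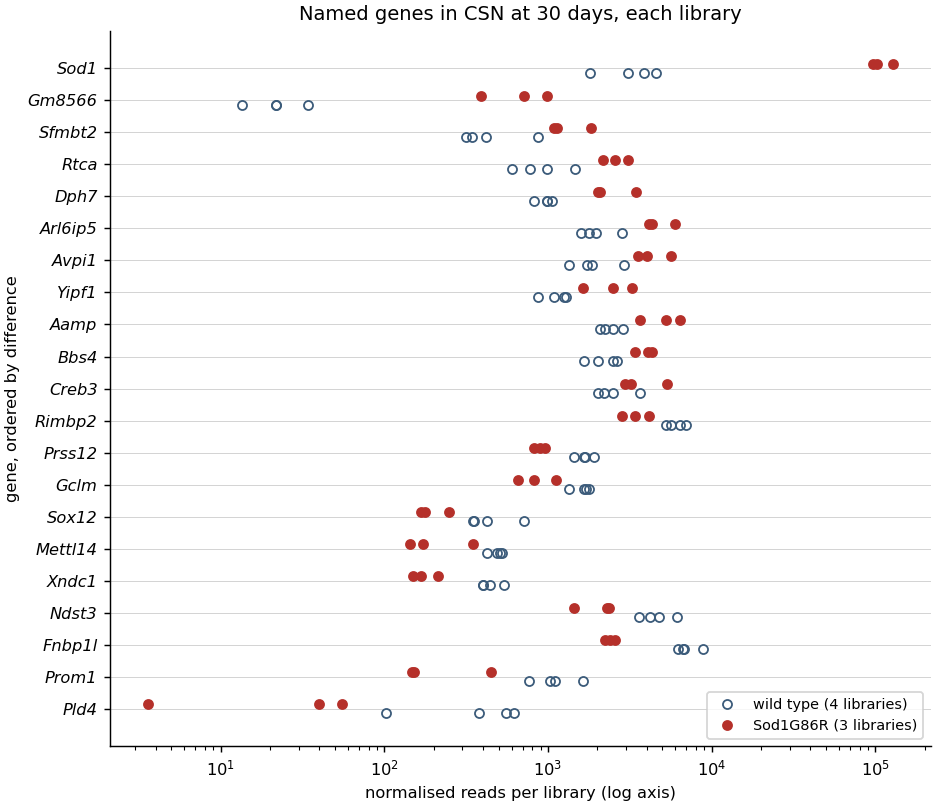
Normalised reads (log axis) of the genes chosen by p or always named, and of Gm8566, in each of the 7 CSN libraries at 30 days. Filled points are the 3 Sod1G86R libraries and open points the 4 wild-type libraries. The groups do not overlap for any gene but Creb3, and the distance is widest for Sod1.

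Fnbp1l was the gene that fell. It encodes Toca-1, an F-BAR protein that bends membranes and links Cdc42 to actin assembly through N-WASP. The Sod1G86R libraries held 2557, 2378 and 2223 normalised reads and the wild-type libraries 6745, 8783, 6670 and 6213. All mutant values lay within a narrow range and below every wild-type value. The log2 difference was -1.55 ± 0.20 (limma adjusted p = 9.24e-05), and its adjusted p was at most 0.00255 when any single library was left out. Fnbp1l lies on chromosome 3 at 122538719 to 122619715 on the minus strand.

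The gene stands in a stretch of chromosome 3 whose genes had been seen to be lower in Sod1G86R CSN over all ages, so the direction of its members here is a description and was not tested. From the start of Gm26871 to the end of Ugt8a, at 118430324 to 125938619, the stretch spans 7.51 Mb. Of its 48 tested genes 46 had a log2 difference below 0, with a median of -0.68. Of the 21 with a group mean of at least 346 normalised reads all were below 0, from -2.16 to -0.54 with a median of -0.90, and in 14 the groups did not overlap, against 4.28% of all genes with all mutants below. Only Fnbp1l passed. In the 5 Mb before the stretch the median of 16 such genes was 0.20 and in the 5 Mb after it -0.24. The nearest such genes outside were Snx7 (0.37) and Ank2 (0.07), against -1.42 for Gm26871 and -2.16 for Ugt8a just inside. Rtca and Extl2, with 1.47 and 1.26, lie before the stretch.

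Beside Fnbp1l, 4 of the other 9 named genes with lower values lay in this stretch. Ndst3, which sulfates heparan sulfate chains, had 2360, 2292 and 1435 normalised reads against 3609, 6135, 4183 and 4784 (-1.20 ± 0.24, adjusted p = 0.0677). Gclm, the modifier subunit of the enzyme that limits glutathione synthesis, had 824, 652 and 1125 against 1666, 1337, 1773 and 1702 (-0.90 ± 0.19, adjusted p = 0.0853). Prss12, the secreted neuronal protease neurotrypsin that cleaves agrin, had 953, 895 and 824 against 1661, 1673, 1915 and 1445 (-0.88 ± 0.19, adjusted p = 0.0853). For each of the 3 genes every mutant value lay below every wild-type value, and none passed. Mettl14, a subunit of the enzyme that writes N6-methyladenosine into RNA, had 346, 142 and 173 against 486, 421, 511 and 524 (-1.11 ± 0.27, adjusted p = 0.128). The stretch also holds Ptbp2, a neuronal splicing regulator (-0.61), Abcd3, a peroxisomal membrane transporter (-0.82), and Ugt8a, which makes the galactolipids of myelin (-2.16).

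The 3 genes of the stretch with the smallest p and 1 start site in the RefSeq promoter table (GRCm38.p6) are shown by the 250 bases before that start, since these genes were lower together. Capitals mark GGGCGG, the core of a GC box, and TGACNNNGC, the core of the antioxidant response element bound by NRF2, on either strand.
Fnbp1l: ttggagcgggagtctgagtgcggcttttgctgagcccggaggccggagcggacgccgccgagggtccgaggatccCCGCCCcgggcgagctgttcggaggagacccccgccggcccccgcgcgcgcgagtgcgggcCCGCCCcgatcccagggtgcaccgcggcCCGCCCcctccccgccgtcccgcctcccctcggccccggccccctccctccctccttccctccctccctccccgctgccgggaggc
Gclm: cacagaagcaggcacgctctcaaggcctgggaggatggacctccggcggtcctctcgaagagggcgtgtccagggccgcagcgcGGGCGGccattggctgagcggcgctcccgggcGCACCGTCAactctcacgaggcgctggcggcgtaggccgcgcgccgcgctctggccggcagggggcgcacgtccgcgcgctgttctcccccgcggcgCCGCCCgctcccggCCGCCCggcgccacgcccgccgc
Prss12: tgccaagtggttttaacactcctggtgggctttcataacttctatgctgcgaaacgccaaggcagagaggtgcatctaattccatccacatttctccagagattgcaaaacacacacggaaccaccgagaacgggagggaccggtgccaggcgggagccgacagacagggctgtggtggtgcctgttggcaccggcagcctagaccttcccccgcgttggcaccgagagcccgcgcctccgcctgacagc

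These windows are chr3:122619715-122619964 (minus strand), chr3:122245307-122245556 (plus) and chr3:123446663-123446912 (plus). The first 2 are rich in CG, with 33 and 41 CG pairs and a GC content of 80% and 78.4%, where the median of all 32851 windows was 6 pairs and 52.4%. Prss12 had 15 pairs and 59.6%. GGGCGG was found 3 times each for Fnbp1l and Gclm, not for Prss12, and in 32.7% of all windows. TGACNNNGC was found once, for Gclm on the opposite strand, and in 10.2% of all windows. TATAAA, searched in the same way, was in none of the 3 and in 12.4% of all. Genes that were lower together thus had promoter windows of unlike base composition.

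**Figure D2:**
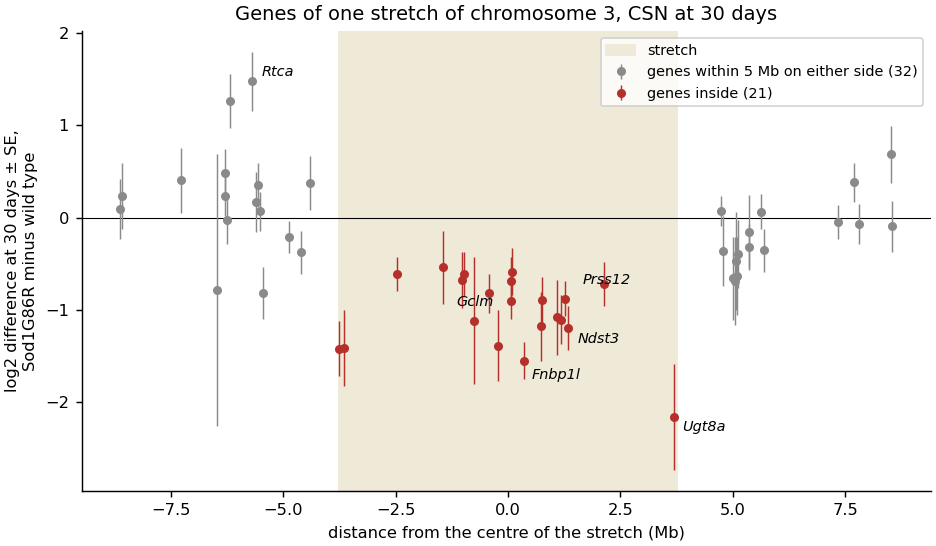
Log2 difference at 30 days with its SE for genes with a group mean of at least 346 normalised reads. Genes are placed by the distance of their lower coordinate from the centre of the chromosome 3 stretch (Mb). The 21 genes inside (red) all lie below 0, with a median of -0.90, while the 32 genes within 5 Mb on either side (grey) lie around 0.

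Beyond Sod1 and its copy Gm8566 no gene rose past the threshold in limma. The 9 named genes with the smallest p among those with higher values had adjusted p-values of 0.0677 to 0.128, and all were without overlap between the groups, a property that their choice by p favours. Sfmbt2, a Polycomb group protein, had 1820, 1080 and 1128 normalised reads against 342, 862, 416 and 317 (1.48 ± 0.29). Aamp, a WD repeat protein of cell migration, had 3626, 5257 and 6371 against 2071, 2220, 2849 and 2504 (1.04 ± 0.21). Dph7, an enzyme of the diphthamide modification of elongation factor 2, had 2033, 2083 and 3451 against 819, 980, 1063 and 988 (1.32 ± 0.27). In Dph7 the wild-type values were close together, and in Sfmbt2 wild-type animal 3 stood above the other wild-type animals.

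Arl6ip5, an endoplasmic reticulum protein that restrains a neuronal glutamate transporter, had 4157, 4289 and 5991 normalised reads against 1791, 1579, 2832 and 1960 (1.24 ± 0.28, adjusted p = 0.119). Rtca, an enzyme that cyclises the phosphate at RNA ends, had 2160, 2579 and 3075 against 598, 984, 1461 and 778 (1.47 ± 0.32, adjusted p = 0.0853). For both the highest wild-type value was that of animal 4, and it stayed below the lowest mutant value. Avpi1 (1.18 ± 0.25), the Golgi protein Yipf1 (1.07 ± 0.24) and Bbs4, a subunit of the ciliary BBSome (0.84 ± 0.19), followed. The ranges of Yipf1 came close, with 1627 in Sod1G86R animal 3 and 1290 in wild-type animal 4.

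Outside chromosome 3 the named genes with lower values were Xndc1, Prom1, Pld4, Rimbp2 and Sox12, and none passed. Rimbp2, which ties calcium channels to the presynaptic release site, had 4132, 3413 and 2846 normalised reads against 6950, 6414, 5224 and 5620 (-0.81 ± 0.19, adjusted p = 0.128). Xndc1 had 168, 213 and 150 against 439, 539, 398 and 403 (-1.18 ± 0.25, adjusted p = 0.0788), and Sox12, a SoxC transcription factor, 178, 248 and 167 against 352, 346, 424 and 708 (-1.04 ± 0.26, adjusted p = 0.128). Both were at low levels and tight within the mutant group. Pld4, an endolysosomal nuclease of microglia, had 3.57, 39.9 and 55.0 against 622, 553, 378 and 101.8 (-2.60 ± 0.61). Prom1, the membrane protein CD133, had 151, 447 and 148 against 767, 1106, 1030 and 1642 (-2.16 ± 0.50). In control cells of 30 days Pld4 had 594 to 5304 normalised reads and Prom1 7224 to 17154, above every CSN library of that age for Prom1. With the level of glial markers as a covariate their differences were -2.21 and -1.59.

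Creb3, the membrane-bound transcription factor of the endoplasmic reticulum that the series' title names, had 2942, 3217 and 5346 normalised reads in Sod1G86R and 2019, 2183, 3619 and 2498 in wild type. Wild-type animal 4 lay above 2 of the 3 mutants. The log2 difference was 0.55 ± 0.26 (limma adjusted p = 0.347), and 0.18 once the mitochondrial percentage entered the model. Of 9 genes of the CREB3 family and its reported partners none passed, 5 were above 0 and the median was 0.12, or -0.11 without Sod1G86R animal 3. Herpud1, a ubiquitin-like protein of endoplasmic reticulum-associated degradation, stood highest at 0.82 ± 0.29, and Creb3l1 lowest at -0.79 ± 0.31.

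The direction of a difference went with the level of the gene. Genes were split by their mean in the 7 libraries into 10 bins of equal size. In the highest bin, from 3749 normalised reads up, the median log2 difference was 0.27, and all 3 Sod1G86R libraries lay above all 4 wild-type libraries in 13.5% and below in 1.05%. In the third bin from below (48.5 to 88.5 normalised reads) the median was -0.20, with 0.995% above and 5.34% below. Per library, the median over the highest bin was 0.30, 0.09 and 0.40 in Sod1G86R, relative to the mean of the 4 wild-type libraries. In wild type it was 0.14, -0.26, 0.29 and -0.21, each relative to the mean of the other 3, which widens the wild-type spread. The libraries of both genotypes overlapped. With a covariate for the mitochondrial share the median of the highest bin was 0.13, and after quantile normalisation -0.01. Lists of abundant genes are therefore given beside this shift.

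**Figure D3:**
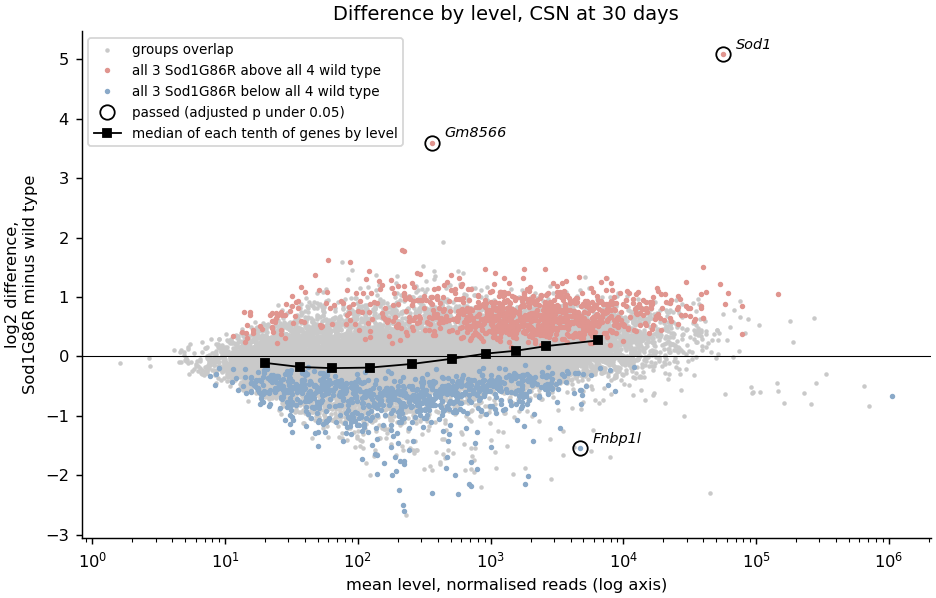
Log2 difference (Sod1G86R minus wild type) at 30 days against the mean level in normalised reads (log axis) for all tested genes with a symbol, and the median of each of 10 bins of genes by level (black squares). Sod1, Gm8566 and Fnbp1l stand outside the cloud, and the medians run from -0.20 in the third bin to 0.27 in the highest.

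The share of reads from mitochondrial genes was 8.35%, 5.47% and 3.90% in Sod1G86R and 9.01%, 9.71%, 8.08% and 10.4% in wild type, and the groups overlapped at Sod1G86R animal 3 (two-sided exact permutation test p = 0.114, adjusted over 5 library measures p = 0.190). The mean log2 level of glial markers was 7.48, 9.15 and 8.86 against 9.43 to 9.59, without overlap (exact permutation p = 0.0571, the smallest that 35 assignments allow, adjusted p = 0.190). Reads, detected genes and the share of the 50 most abundant genes had exact permutation p-values of 0.286, 0.229 and 0.114. The part of these measures in the differences between gene groups below was not tested beyond the values given.

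Genes of protein degradation had higher values in the mutants, though none passed. The proteasome is the complex that degrades ubiquitin-tagged proteins. Of 39 subunits 38 were above 0 and in 12 all 3 Sod1G86R libraries lay above all 4 wild-type libraries, with a median of 0.61. That held for 4.91% of all genes and for 13.5% of the genes in the highest bin. Psmc2, an ATPase of the regulatory particle, had 8254, 9130 and 10006 normalised reads against 4823, 5422, 6810 and 4947 (0.74 ± 0.20, adjusted p = 0.145). Psmd13 (0.99 ± 0.26), Psmd8 (0.98 ± 0.27) and Psmc1 (0.86 ± 0.25) had larger differences, but the groups overlapped for Psmd13 and Psmd8. Per library the median of the list was 0.48, 0.38 and 0.92 in the mutants, each against the mean of all 4 wild-type libraries. In wild type it was 0.06, -0.41, 0.41 and 0.04, each against the mean of the other 3 wild-type libraries. That reference widens the wild-type spread, so the 0.41 of wild-type animal 4 cannot be set directly beside the mutant values. Of 27 autophagy and lysosome genes 20 were above 0 and 7 did not overlap (4.91% of all genes and 13.5% in the highest bin), with a median of 0.45, or 0.28 without Sod1G86R animal 6. The lysosomal protease Ctsz had 1955, 2550 and 3009 against 1319, 1589, 1326 and 1014 (0.91 ± 0.23, adjusted p = 0.145), and the lysosomal channel Mcoln1 had a difference of 0.72 ± 0.21.

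Genes of energy metabolism split by the genome that encodes them. Of 76 nuclear genes of oxidative phosphorylation 72 were above 0 and 15 did not overlap (4.91% of all genes and 13.5% in the highest bin), with a median of 0.43, or 0.20 without Sod1G86R animal 6. Ndufv1, a core subunit of complex I, had 7566, 9654 and 16624 normalised reads against 3329, 3547, 6986 and 5105 (1.23 ± 0.28, adjusted p = 0.128). Uqcrc1 of complex III (1.26 ± 0.30) and Ndufa9 of complex I (1.31 ± 0.32) were similar. Of 30 glycolysis and citric acid cycle genes 28 were above 0 and 8 did not overlap (against the same 4.91% and 13.5%), with a median of 0.46, or 0.30 without animal 6. Ldhb, a lactate dehydrogenase subunit, had 63519, 60768 and 101059 against 31569, 22383, 48013 and 27914 (1.23 ± 0.29, adjusted p = 0.128). In contrast all 12 tested genes that the mitochondrial genome encodes were below 0, with a median of -0.62. Only 1 of them, mt-Cytb, separated the groups, where 4.28% of all genes had all mutants below. It had 1032280, 749905 and 677999 against 1441280, 1206610, 1267520 and 1246080 (-0.67 ± 0.32, adjusted p = 0.345). Per library the median of these genes was -0.24, -0.75 and -0.92 in the mutants and 0.26, -0.56, -0.10 and 0.29 in wild type. No gene of these lists passed. Sod1G86R animal 6 had the highest median for the nuclear genes, 0.89, while wild-type animals 1 and 4 reached 0.62 and 0.51, above Sod1G86R animals 3 and 4 at 0.21 and 0.15. The wild-type values here are against the mean of the other 3 wild-type libraries, those of the mutants against the mean of all 4.

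Secretory pathway and stress genes showed smaller shifts. Of 30 ER-to-Golgi trafficking genes 24 were above 0 and 6 did not overlap, against 4.91% of all genes and 13.5% in the highest bin. The median was 0.27, or 0.17 without Sod1G86R animal 6. Sec22b, a SNARE of that step, had 4516, 3414 and 6334 normalised reads against 1836, 2089, 3199 and 3121 (0.88 ± 0.28, adjusted p = 0.196), and Cope of the COPI coat had 0.80 ± 0.25. Sec24d, a COPII cargo adaptor in the chromosome 3 stretch, had -1.08 ± 0.41. Of 28 unfolded protein response genes 18 were above 0 and 1 did not overlap, near the share of all genes, with a median of 0.23, or 0.11 without animal 6. That gene was Asns, asparagine synthetase, with 9232, 13655 and 22123 against 9127, 4043, 8886 and 6125 (1.07 ± 0.35, adjusted p = 0.199). Of 24 antioxidant genes 19 were above 0 (median 0.39, or 0.17 without animal 6). Of these genes 2 lay above without overlap, Srxn1 (0.71 ± 0.21) and Gsr (0.65 ± 0.25), and 1 below, Gclm, where 4.91% and 4.28% of all genes did so. Srxn1 repairs oxidised peroxiredoxins and Gsr regenerates glutathione. Of 22 heat shock and chaperone genes 14 were above 0 and the median was 0.07, or -0.11 without animal 6.

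With a covariate for the mitochondrial share, and in brackets after quantile normalisation, the medians were 0.31 (0.34) for proteasome subunits, 0.21 (0.24) for autophagy and lysosome genes, 0.13 (0.19) for nuclear oxidative phosphorylation genes, 0.22 (0.16) for glycolysis and the citric acid cycle, 0.08 (0.09) for ER-to-Golgi genes, and -0.10 (-0.87) for mitochondrially encoded genes. The mitochondrial share is computed from the mitochondrially encoded genes themselves, so their shift toward 0 under that covariate was built in and is no separate result. The other lists lay closer to 0 under both settings. After quantile normalisation the mitochondrially encoded genes lay further from 0.

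**Figure D4:**
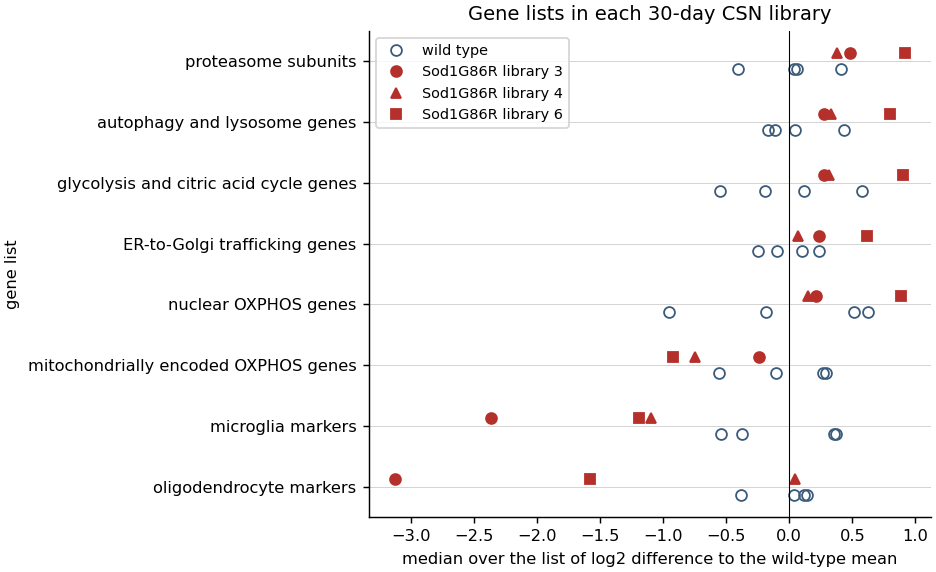
Median over each gene list of the log2 difference in each CSN library at 30 days. Sod1G86R libraries are set against the mean of the 4 wild-type libraries, and each wild-type library against the mean of the other 3. Filled symbols are the 3 Sod1G86R libraries and open circles the 4 wild-type libraries. Proteasome subunits lie at 0.38 to 0.92 in Sod1G86R, with wild-type animal 4 at 0.41 on its own reference. Microglia markers lie at -2.37 to -1.10, below all wild-type libraries.

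Neuronal identity genes differed little. Of 22 CSN and deep-layer markers 14 were above 0 and the median was 0.21, or -0.06 after quantile normalisation and 0.05 without Sod1G86R animal 3. Crym, a thyroid hormone binding protein of CSN, had 13391, 17412 and 14748 normalised reads against 10145, 8062, 14873 and 9240 (0.55 ± 0.22), and the ranges overlapped. Diaph3, an actin nucleator, stood at 0.69 ± 0.28 without overlap, and Lypd1, a modulator of nicotinic receptors, at -1.08 ± 0.33 without overlap. Of 15 pan-neuronal genes 11 were above 0 (median 0.16), and Gap43, a growth cone protein, had 36949, 35076 and 36055 against 22064, 20767, 29989 and 17890 (0.69 ± 0.20, adjusted p = 0.172). Medians were 0.14 for 25 axonal cytoskeleton and transport genes, 0.14 for 20 presynaptic genes, -0.08 for 24 postsynaptic genes, 0.01 for 24 voltage-gated channel genes and 0.04 for 30 ALS-linked genes other than Sod1, and no gene of these lists passed. Of 11 GABAergic markers 8 were above 0 and the median was 0.31, or -0.10 without Sod1G86R animal 6. Of these Lamp5 had 42574, 48094 and 80775 against 28962, 18867, 37719 and 21553 (1.09 ± 0.27, adjusted p = 0.128), while Gad1, which makes GABA, stood at 0.49 ± 0.77 and the interneuron receptor gene Erbb4 at -0.44 ± 0.52.

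Microglia and oligodendrocyte markers had lower values in the mutant libraries. In bulk samples fewer cells of a type and less RNA per cell cannot be told apart. How glial reads came into CSN libraries, and whether that varied between libraries, was not tested. All 14 microglia markers were below 0 (median -1.77), and in 10 all 3 Sod1G86R libraries lay below all 4 wild-type libraries (4.28% of all genes), but none passed. Aif1, a microglial actin-binding protein, had 68.8, 116.7 and 115 normalised reads against 237, 217, 373 and 360 (-1.29 ± 0.42, adjusted p = 0.199). The summed level of the list was 1493, 3164 and 3431 against 5427, 10614, 11137 and 5129, and 28312 to 138685 in control cells of 30 days. No marker of this list was at 0 in any of the 7 libraries. In control cells of 30 days the median of the microglia list was -0.18, with 5 of 14 above 0. In CSN it was -0.09 at 60 days, -0.32 at 90 days and -1.38 at 105 days. All 12 oligodendrocyte markers were below 0 too (median -1.57), but the groups overlapped in all but 1, Ugt8a of the chromosome 3 stretch. Their summed level was 8496, 102809 and 48312 against 82112 to 134970, so Sod1G86R animal 3 was low and animal 4 was like wild type. In animal 3 the oligodendrocyte factor Sox10 was at 0. Without animal 3 the median was -0.67, and for microglia markers it was -1.36. Oligodendrocyte precursor markers (8 genes), endothelial and mural markers (13 genes) and astrocyte markers (12 genes) had medians of -0.75, -0.60 and -0.14, with no gene that passed or that separated the groups. Of the astrocyte markers 5 were above 0, and without Sod1G86R animal 3 their median was 0.53 and that of the precursor markers -0.14. Without wild-type animal 1 the endothelial and mural median was -1.06.

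The genes named at 30 days were then read at the later ages, in other animals. Of the 19 genes other than Sod1, Gm8566 and Creb3, 19 had the same sign at 60 days and 2 passed (0.0314% of all genes passed there). At 90 days 17 had the same sign and 11 passed (4.86% of all genes), and at 105 days 19 had the same sign and 2 passed (0.021% of all). In the mean of the 3 later ages 19 had the same sign and 16 passed, against 11.1% of all genes. Of the 14 that lie outside the chromosome 3 stretch, 14 had the same sign in that mean and 11 passed. The later libraries came from other animals, but all ages shared 1 estimate of each gene's spread, and a small spread favours a gene at every age. The shift with level was also present later. At 60, 90 and 105 days the highest bin of genes had medians of 0.18, 0.26 and 0.27, and the third bin -0.14, -0.24 and -0.25. That favours the same sign for abundant genes with higher values. The share of all genes that kept their sign is not given here. Prom1 and Pld4 did not hold their sign at 90 days, where they stood at 0.36 and 0.01, and Sox12 was at -0.06.

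Sizes were mostly smaller later, which their choice by p at 30 days favours. The 9 genes with higher values had a median of 1.18 at 30 days and 0.59, 0.82 and 0.66 at 60, 90 and 105 days, and the 10 with lower values -1.14 and then -0.57, -0.60 and -0.91. Fnbp1l fell at each later age, by 1.25, 1.19 and 1.24 on the log2 scale (limma adjusted p = 0.00135, 0.00218 and 0.0326). Ndst3 fell as well, with differences of -1.36, -1.03 and -1.65. Arl6ip5 and Dph7 rose at 90 days, by 1.18 and 1.07. The difference between 30 days and the later mean was tested directly. No gene passed in limma, with 378 of 19093 at an unadjusted p under 0.05, in edgeR (425) or in DESeq2 (514). For Fnbp1l that difference was -0.32 ± 0.23, for Sod1 -0.22 ± 0.31 and for Creb3 -0.16 ± 0.30.

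**Figure D5:**
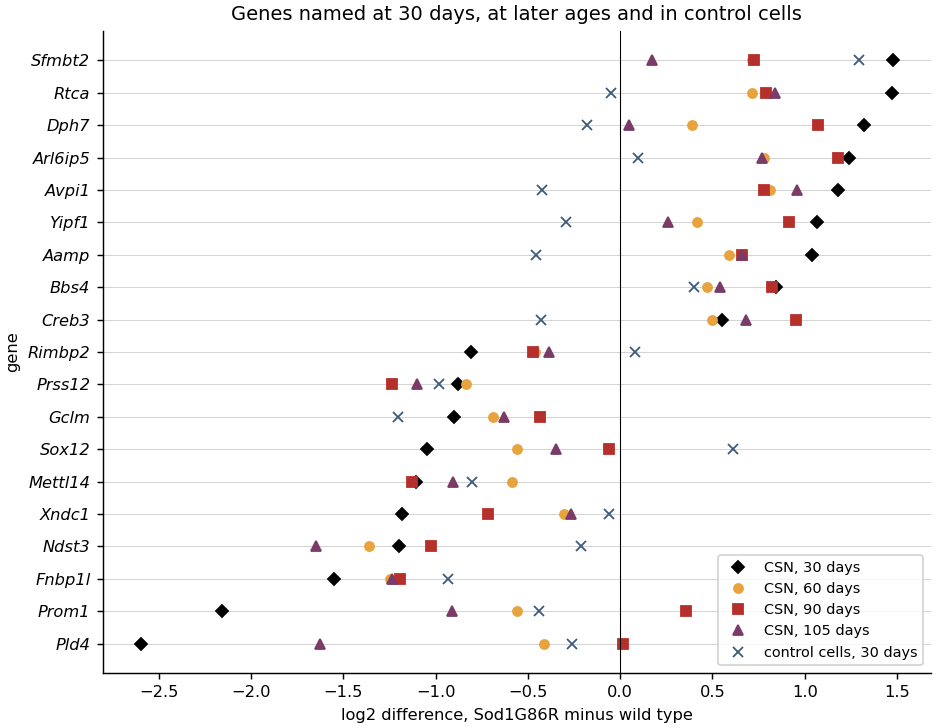
Log2 difference (Sod1G86R minus wild type) of the genes named at 30 days, in CSN at the 4 ages and in control cells at 30 days. Each symbol is 1 age or cell type, without its error, which the text gives for the genes it rests on. Fnbp1l lies between -1.55 and -1.19 at all ages of CSN, and most genes with higher values in CSN lie near 0 or below in control cells.

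In control cells at 30 days 2 of 20944 genes passed (0.00955%), Sod1 (4.84 ± 0.33) and Gm8566 (3.19 ± 0.46). Of the 19 named genes 12 had the same sign there and none passed. The 9 genes higher in CSN had a median of -0.05 and the 10 lower ones -0.35. Sfmbt2 stood at 1.29 ± 0.58, close to its value in CSN, and Fnbp1l at -0.93 ± 0.34 (adjusted p = 0.821). The genes of the chromosome 3 stretch were lower in control cells as well, 20 of 21 below 0 with a median of -0.93, and 0 passed. Proteasome subunits had a median of -0.26, with 7 of 39 above 0, and 1 of 76 nuclear oxidative phosphorylation genes was above 0 (median -0.17). Tested directly, the genotype difference in CSN differed from that in control cells in no gene by limma, with 2054 of 22032 at an unadjusted p under 0.05. This fit did not take account of animals that gave both libraries. With the animal as a block no gene passed either, with 2180 at an unadjusted p under 0.05. For Fnbp1l the difference between the cell types was -0.62 ± 0.38 and for Creb3 0.98 ± 0.40 (adjusted p = 0.474). Nothing in the 30-day contrast is thus shown to belong to CSN alone.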

How the data were processed

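Per the labels and the design text, full-length cDNA was made from total RNA with the SMART-Seq kit version 4 and tagmented with Nextera XT. The authors mapped it to GRCm38 by STAR 2.7.0 and assigned reads to Ensembl 87 genes. Processing notes of the submitters list edgeR and mm10, with no role stated. The deposited table holds normalised counts, handled here as signal values, for 45337 genes; how they were normalised is not given in these sources. Every value of a library was a whole multiple of a fixed step (tolerance 0.001 reads, 100% of values), and division by that step recovered the reads. No molecular identifiers were used, so reads of 1 molecule can repeat.

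Genes reaching 34.6 (1 ppm of the median column total) in at least 3 libraries were kept. Log2(value + 34.6) of all 29 CSN libraries was fitted with limma 3.58.1 (R 4.3.3, trended robust prior, 1 coefficient per genotype and age, 21 residual degrees of freedom), with Benjamini-Hochberg adjustment over all genes and a threshold of 0.05. Control cells (28 libraries) were fitted apart, and all 57 together for the difference between cell types. Exact permutation tests used scipy 1.17.1. Alternatives included edgeR 4.0.16 and DESeq2 1.42.0 on the recovered reads, covariates, other scalings and leaving out each library. The statistics were checked on simulated counts.

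Sod1 and Creb3 are always named. In each direction the genes that passed are named, filled up to 10 by the smallest p among genes whose symbol is no predicted or Riken name and whose higher group averages 346 or more. Up to 4 genes of smallest p were open to naming per list, and some further list members were named after their values were seen. Some results are not reported here, though the counts and medians include those genes. The comparison, the members and the 36 gene lists were chosen with earlier results of these data known. Same-numbered animals of the genotypes are different animals, and the main fit did not take the numbers as pairs. Residual correlations of same-numbered CSN libraries at 30 days were 0.407 and -0.05. They were 0.02, 0.49 and 0.30 at 60 days, 0.39 and -0.03 at 90 days, and 0.25 and 0.07 at 105 days. The 30-day CSN library numbers of Sod1G86R and wild-type animals 3 were 79 and 77, and those of animals 4 were 81 and 83. A shared processing of such libraries is thus possible and was not tested. Gene coordinates follow the GENCODE M21 annotation (GRCm38), and promoter sequences are from RefSeq (GRCm38.p6).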

Additional observations from a re-analysis of the deposited data

How the results depend on the processing

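The count of 3 genes at 30 days (2 higher, 1 lower) depended on the processing: it was 245 with DESeq2, 11 after quantile normalisation (6 higher, 5 lower), 8 with a filter of 173 normalised reads in 8 libraries, 7 with array weights, 6 with a covariate for glial markers, 5 with one for the mitochondrial share, and 4 with one for detected genes or with no filter. It stayed at 3 with the library number as a covariate. The cause of the changes was not tested. With the replicate block, which treats same-numbered libraries of the genotypes as pairs, it was 326 (288 higher). The main fit did not take the numbers as pairs, and whether same-numbered libraries were processed together was not tested. Leaving out each library in turn gave 3 to 44 genes, with 8 without Sod1G86R animal 3 and 44 without wild-type animal 4. The difference from later ages gave 0 to 1 genes and the difference from control cells 0 to 1, in each case 1 without Sod1G86R animal 4. For single genes the alternatives were run for the 21 genes of the naming rule and Gm8566, not for the members named from lists, and gave 479 values. The direction was kept in all 479, and in 59 a gene that had not passed did so. Medians of gene lists were less stable to single libraries. Of 36 lists the median changed sign without some library in 13 and moved by over 1.5 times with its sign kept in 20. Only microglia markers (-1.93 to -1.36), proteasome subunits (0.42 to 0.72) and mitochondrially encoded genes (-0.88 to -0.47) stayed within that factor. Interferon genes went to 0.02 (without wild-type animal 3), and without Sod1G86R animal 3 cholesterol synthesis genes went to 0.27 and postsynaptic genes to -0.31.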

Other observations

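Of 74 cytosolic ribosomal protein genes 24 were above 0 at 30 days (median -0.08) and no gene separated the genotypes, whereas 70 of 74 were above 0 at 60 days and 5 at 90 days. Splicing and RNA-binding genes (33, median -0.09) included Ptbp2 of the chromosome 3 stretch and Tardbp, the ALS gene that encodes TDP-43, with 5563, 4331 and 5412 normalised reads in Sod1G86R and 6264, 5653, 6754 and 6541 in wild type (-0.31 ± 0.16, limma adjusted p = 0.401). All 3 mutant values lay below the wild-type range. Axon guidance genes (33, median -0.09), apoptosis and p53 response genes (21, median 0.08), cholesterol synthesis genes (20, median -0.05), glucocorticoid response genes (14, median 0.06), glutamatergic markers (10, median -0.08) and upper-layer markers (16, median -0.13) were centred near 0. Separated groups were seen in 3 of the 33 splicing genes and 2 of the 33 axon guidance genes, all lower in Sod1G86R, against 4.28% of all genes.

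Interferon and antigen presentation genes had a median of -0.45 over 18 genes, with 2 below without overlap (4.28% of all genes), and of 0.02 without wild-type animal 3. The class I antigen presentation gene H2-K1 had 43.8, 158.5 and 88.6 normalised reads against 256, 246, 259 and 265 (-1.24 ± 0.45, adjusted p = 0.238). The wild-type values were nearly equal and the mutants spread below them. Immediate early genes (14, median -0.16) and injury and regeneration genes (14, median -0.23) had 3 and 5 genes above 0, and disease-associated microglia genes (10) a median of -0.13. In that list Tyrobp, an adaptor of microglial receptors, stood at -1.77 ± 0.77, and the protease Ctsl, also among the lysosome genes, at 0.60 ± 0.19.

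Ttr, a thyroid hormone carrier made in the choroid plexus, had 2587 normalised reads in Sod1G86R animal 6 and at most 12.97 in the other 6 CSN libraries of 30 days. Of the other choroid plexus genes tested, Kcnj13, Folr1 and Prlr had differences of 0.24, 0.04 and -0.02, and the haemoglobin gene Hbb-bt stood at -1.79, without overlap.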
